A study of Sus scrofa with 8 samples.

Results

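Interferon-stimulated genes are the genes that cells switch on after interferon reaches them, and their mRNA levels are described here in the heart of Tibetan and Yorkshire pigs. The genes were taken by symbol from a list of 51, and 45 of these symbols were found among the 18975 genes of the deposited expression table. They gave 47 rows, because EIF2AK2 and ZNFX1 each have 2. The symbols BST2, EPSTI1, IFI6, IFITM3, RSAD2 and RTP4 had no row of that name. The heart tissue came from male pigs of 6 months, and the 4 groups were Tibetan pigs raised in the highland (TH), Tibetan pigs raised in the lowland (TL), Yorkshire pigs raised in the highland (YH) and Yorkshire pigs raised in the lowland (YL). Each group had 2 libraries. Every library held the pooled RNA of several pigs, so the libraries of a group differ as pools do and not as animals do, and p-values measure only that spread. The labels name no treatment, and the design asks how breed and altitude go with gene expression in the heart.

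As background, virus sensors inside the cell lead to the release of type I interferons, which bind the receptor formed by IFNAR1 and IFNAR2. The kinases JAK1 and TYK2 then activate STAT2, which acts with IRF9 at the interferon-stimulated response element in the promoters of these genes. Interferon gamma, made mainly by T cells and natural killer (NK) cells, acts in part through IRF1, and the guanylate-binding proteins (GBP) and the enzyme IDO1 are among its best known targets. In the heart these genes are known for the defence of cardiomyocytes against viruses that cause myocarditis.

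Values are FPKM, the fragments of a gene scaled to the length of its transcript and to the mapped fragments of the library, so levels of different genes are compared per length. Between 15690000 and 26720000 reads per library fell on genes. Averaged over the 8 libraries, the 47 rows ran from 0.247 FPKM (IDO1) to 48.2 FPKM (IFITM1) with a median of 4.75 FPKM, and 10 rows had a mean of at least 10 FPKM. The reads behind a row, summed over the 8 libraries, ran from 63 to 9601 with a median of 1986. Of the 47 rows, 41 reached 1 FPKM in 2 libraries or more and were tested. The 6 rows that did not pass this filter were OASL, GBP5, IDO1, both rows of EIF2AK2 and 1 of the rows of ZNFX1.

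In bulk tissue, fewer cells of a type and less RNA per cell cannot be told apart. The kidney markers summed to 9033 FPKM in YL2 and to at most 18.1 FPKM in any other library, and all 17 kidney rows were highest in YL2. The cardiomyocyte markers summed to 16184 FPKM in YL2 and to between 25772 and 43617 FPKM in the others. The labels of all 8 libraries say heart, and every comparison with YL rests on this library. In TH1, mitochondrial transcripts took 87.6% of all FPKM, against 57.7% to 80.3% in the other libraries. These shares and marker sums are given as measured, and their part in the levels of the interferon-stimulated genes was not tested.

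The most marked pattern was in a single library. YL1 had the highest level of 35 of the 41 tested genes (85.4%), whereas YL1 was highest in 7.56% of all 11913 genes tested. In 24 of the 41 (58.5%), YL1 was more than 2 times every other library, against 0.537% of all genes tested. On the log2(FPKM + 1) scale, the median gene was 1.54 above the median of the other 7 libraries in YL1, where the median over all genes was -0.05. The summed level of the 47 rows was 972 FPKM in YL1 and between 180.3 and 356 FPKM in the other libraries. The other Yorkshire lowland pool, YL2, had the lowest of these sums, so the difference lies within a group and not between groups. Of the 47 rows, 45 were higher in YL1 than in YL2, with a median ratio of 4.68. YL2, which held the kidney markers, was itself the lowest library in 14 of the 41 tested genes (34.1%, against 22.5% of all genes tested). The ratio therefore also holds low levels in YL2.

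**Figure D1:**
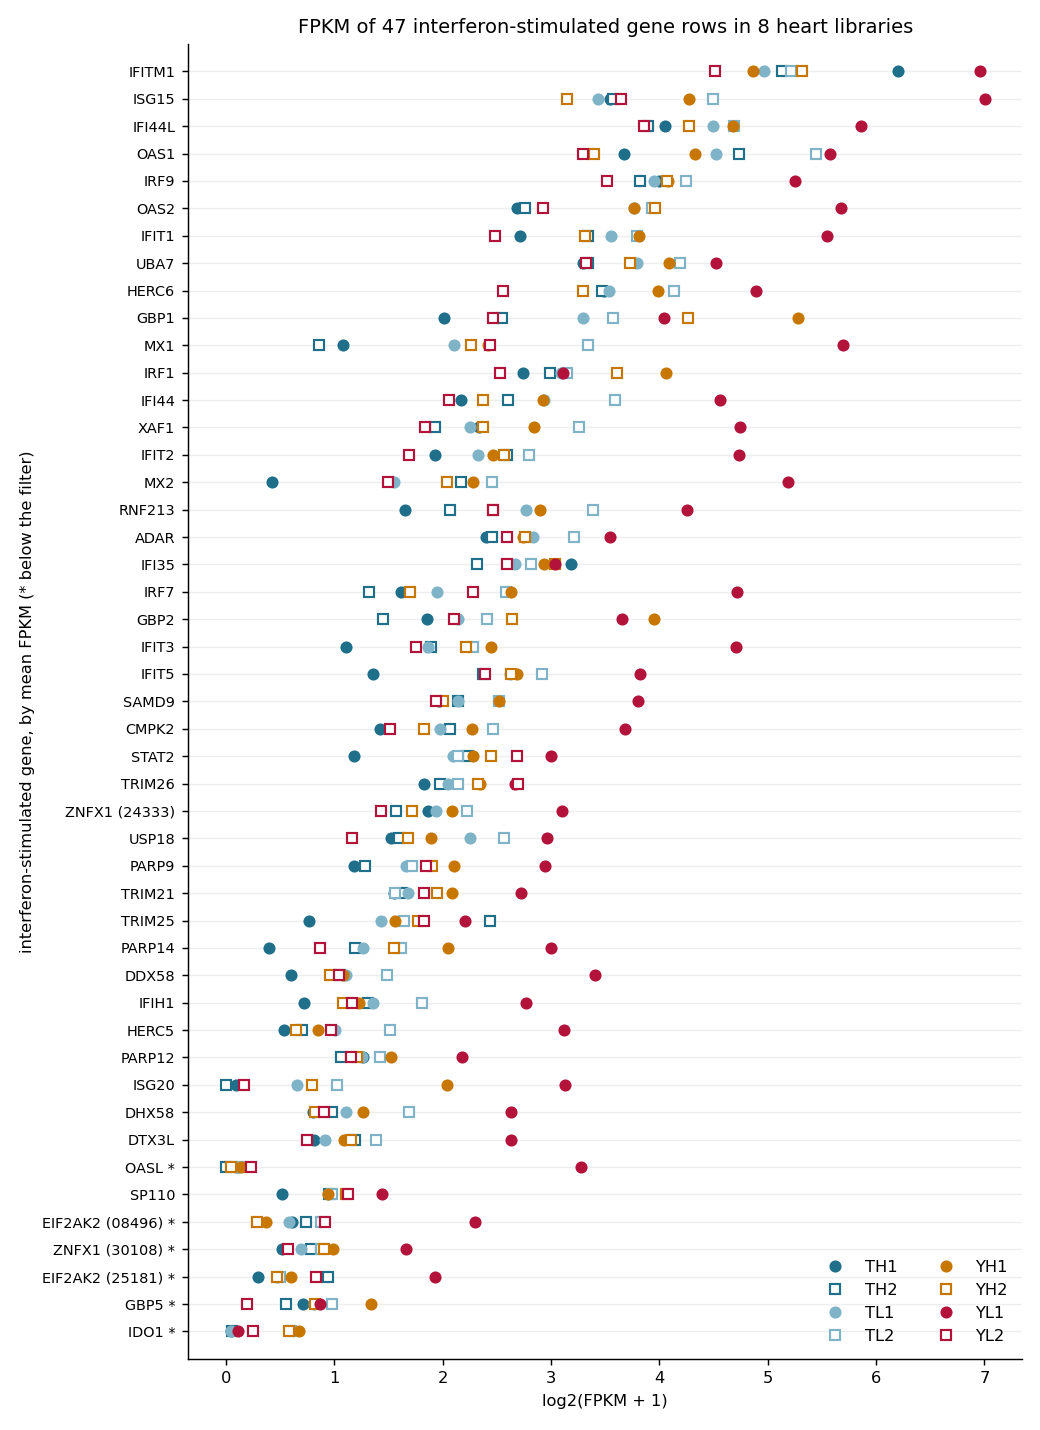
Level of each interferon-stimulated gene on the log2(FPKM + 1) scale in the 8 libraries, with genes in the order of their mean FPKM, circles for replicate 1 and squares for replicate 2 of each group, and an asterisk for the 6 rows below the filter. The YL1 circles lie to the right of all other points in 39 of the 47 rows.

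The ubiquitin-like modifier ISG15 and the enzymes that attach or remove it showed this in all 5 members. ISG15, which is coupled to other proteins during the antiviral response, had 10.7 and 10.9 FPKM (TH), 9.80 and 21.6 (TL), 18.4 and 7.89 (YH) and 127 and 11.6 (YL). Its level in YL1 was 5.88 times the next highest library, and the remaining 7 libraries lay within a range of 7.89 to 21.6 FPKM. HERC5, a ligase for ISG15, had 0.452 and 0.626 FPKM (TH), 1.01 and 1.85 (TL), 0.807 and 0.570 (YH) and 7.71 and 0.957 (YL). UBA7, the enzyme that activates ISG15, differed least, with 21.9 FPKM in YL1 and 8.84 to 17.3 FPKM elsewhere. The ratio of YL1 to the median of the other libraries ran from 1.79 to 11.7 over these 5 genes, which also include the ligase HERC6 and USP18, the protease that takes ISG15 off again.

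The cytosolic sensors of viral RNA were low in all libraries but YL1. DDX58, which encodes RIG-I, had 0.521 and 1.07 FPKM (TH), 1.16 and 1.81 (TL), 1.12 and 0.947 (YH) and 9.59 and 1.06 (YL). IFIH1, which encodes MDA5, reached 5.84 FPKM in YL1 and at most 2.52 FPKM elsewhere. DHX58, a regulator of both, reached 5.22 FPKM in YL1 and at most 2.23 FPKM elsewhere.

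The antiviral effectors that act on RNA or on translation were highest in YL1 in all 15 rows. IFIT1, which binds viral RNA that lacks the methylation of a host cap, had 5.57 and 9.15 FPKM (TH), 10.8 and 12.9 (TL), 13.1 and 8.92 (YH) and 45.8 and 4.59 (YL). Its neighbours behaved alike. On chromosome 14 of the Sscrofa10.2 assembly, IFIT2, IFIT3, IFIT1 and IFIT5 stand in a row between positions 110179711 and 110252240, and their levels in YL1 were 25.6, 25.2, 45.8 and 13.1 FPKM. The highest levels of these 4 genes in any other library were 5.95, 4.47, 13.1 and 6.55 FPKM.

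The oligoadenylate synthetases, which make the messenger that activates RNase L, differed among themselves. OAS2 had 5.42 and 5.79 FPKM (TH), 12.6 and 14.2 (TL), 12.7 and 14.6 (YH) and 50.1 and 6.61 (YL). OAS1, which lies 21193 bases from OAS2 on chromosome 14, had 11.8 and 25.7 FPKM (TH), 21.9 and 42.6 (TL), 19.1 and 9.57 (YH) and 46.7 and 8.80 (YL). In OAS1, TL2 came close to YL1, so this gene did not single out YL1 as the others did. OASL, a member of the family without synthetase activity, had 8.71 FPKM in YL1 and at most 0.178 FPKM elsewhere. Its reads were 195 in YL1 and between 0 and 7 in each other library, so its level elsewhere was close to the limit of detection.

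Several effectors of lower level were also highest in YL1. ISG20, an exonuclease, had 0.068 and 0 FPKM (TH), 0.574 and 1.04 (TL), 3.11 and 0.741 (YH) and 7.75 and 0.125 (YL), from 215 reads in all. CMPK2, a nucleotide kinase of mitochondria, had 11.8 FPKM in YL1 and 1.69 to 4.54 FPKM elsewhere. The 2 rows of EIF2AK2, the kinase PKR that stops translation, cover the same locus on chromosome 3, so reads may have been divided between them. They stood at 3.92 and 2.80 FPKM in YL1 and at 0.217 to 0.917 FPKM elsewhere. ADAR, which converts adenosine to inosine in double-stranded RNA, had the lowest ratio of YL1 to the median of the other libraries among the effectors, with 10.7 FPKM in YL1 and 4.29 to 8.24 FPKM elsewhere.

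The GTPases fell into separate patterns. MX1, which traps viral nucleoproteins, had 1.12 and 0.818 FPKM (TH), 3.29 and 9.14 (TL), 4.37 and 3.79 (YH) and 50.7 and 4.41 (YL). MX2 lies 16798 bases from MX1 on chromosome 13, and it had 0.340 and 3.52 FPKM (TH), 1.93 and 4.50 (TL), 3.86 and 3.10 (YH) and 35.5 and 1.82 (YL). Both were over 5 times higher in YL1 than in any other library, with ratios of 5.54 and 7.87. The guanylate-binding proteins were instead highest in YH1, as described below.

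IFITM1, a membrane protein that blocks the entry of viruses, was the only tested gene of its role. It had 72.8 and 34.2 FPKM (TH), 30.3 and 36.3 (TL), 28.2 and 38.8 (YH) and 123 and 21.9 (YL). Its gene model spans 111292 bases on chromosome 2, and since the family has close copies, its level may include reads of other members.

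Of the genes that carry the signal itself, IRF7 and IRF9 stood apart in YL1 more than STAT2. IRF7, the regulator that amplifies type I interferon production, had 2.07 and 1.49 FPKM (TH), 2.85 and 4.99 (TL), 5.19 and 2.25 (YH) and 25.4 and 3.87 (YL). IRF9, the DNA-binding partner of STAT2, had 37.0 FPKM in YL1 and 10.5 to 18.0 FPKM elsewhere. STAT2 had 1.26 and 3.69 FPKM (TH), 3.27 and 3.42 (TL), 3.86 and 4.45 (YH) and 6.99 and 5.44 (YL). STAT2 was therefore high in both YL libraries, and the YL libraries did not overlap with those of any other group.

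The ubiquitin ligases and PARP proteins were highest in YL1 in 6 of 8 genes. RNF213, a large ligase with a known role in vessel disease, had 2.14 and 3.19 FPKM (TH), 5.82 and 9.47 (TL), 6.44 and 4.53 (YH) and 18.1 and 4.52 (YL). PARP14, PARP9 and its partner DTX3L lie together on chromosome 13 between positions 147430045 and 147621804. They reached 6.98, 6.71 and 5.20 FPKM in YL1 and at most 3.15, 3.29 and 1.61 FPKM elsewhere. TRIM26 did not share the pattern, with 2.55 and 2.93 FPKM (TH), 3.13 and 3.41 (TL), 4.07 and 4.03 (YH) and 5.36 and 5.48 (YL). TRIM25, a ligase that acts on RIG-I, was highest in TH2 with 4.43 FPKM and lowest in TH1 with 0.702 FPKM, from 57 and 8 reads.

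Among the genes of other roles, XAF1, which favours apoptosis, reached 25.8 FPKM in YL1 and at most 8.58 FPKM elsewhere. IFI44 and IFI44L, neighbours on chromosome 6, reached 22.6 and 57.0 FPKM in YL1 and at most 11.1 and 24.9 FPKM elsewhere. IFI35 was highest in TH1 with 8.10 FPKM, and its 8 libraries lay between 3.98 and 8.10 FPKM.

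A gene listed in the table as IRG6, an older name of RSAD2, was looked up after the values were seen and is not counted among the members. This antiviral enzyme, viperin, had 0.126 and 2.74 FPKM (TH), 2.21 and 6.37 (TL), 4.62 and 2.31 (YH) and 72.3 and 1.77 (YL). It too was far higher in YL1 than elsewhere.

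**Figure D2:**
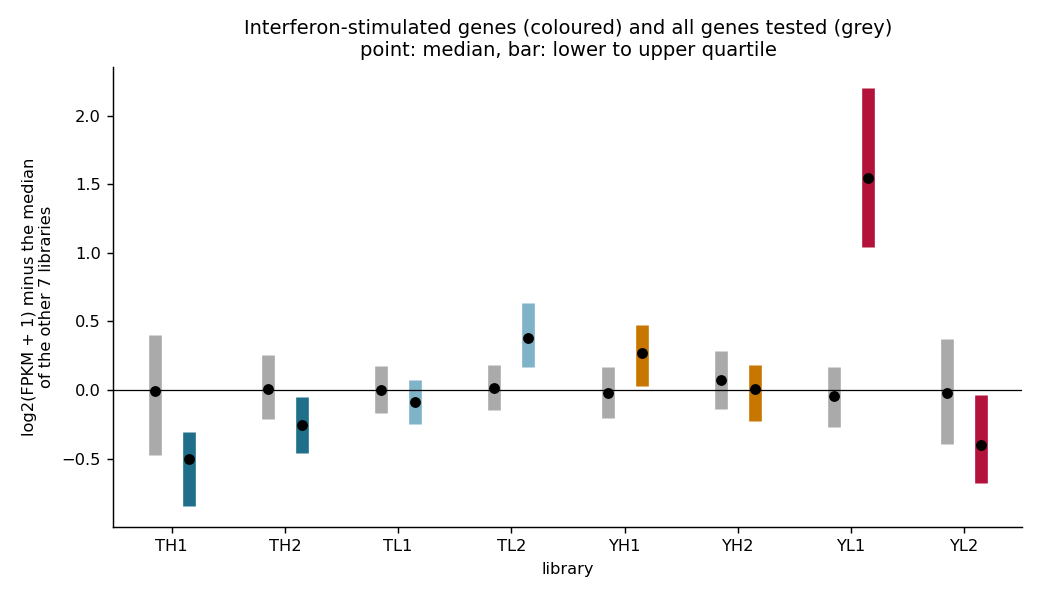
Deviation of each library from the median of the other 7 libraries on the log2(FPKM + 1) scale, with points for the median and bars from the lower to the upper quartile, for the 41 tested interferon-stimulated genes in colour and for all 11913 genes tested in grey. The interferon-stimulated genes stand at 1.54 in YL1, at -0.50 in TH1 and at -0.40 in YL2, while the medians over all genes lie close to 0.

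Smaller differences between the pools of a group were also shared by most members. In TL, TL2 was higher than TL1 in 40 of the 41 tested genes (97.6%, against 52.1% of all genes tested), with a median difference of 0.37 on the log2 scale. In YH, YH1 was higher than YH2 in 32 of 41 (78.0%, against 37.6% of all genes). In TH, TH2 was higher than TH1 in 29 of 41 (70.7%, against 48.5%). With YL1 left out, TL2 was the highest library in 23 of 41 genes (56.1%, against 8.08% of all genes).

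No interferon-stimulated gene passed the test in any comparison between groups. A gene was called at a Benjamini-Hochberg adjusted p under 0.01 with a log2 fold change over 1 in size, in a limma fit to log2(FPKM + 1) in the 8 libraries together. Each fold change is that of the group named first relative to the group named after it, so a negative value in TH to YH means a lower level in TH. At this threshold 0 of 41 were called in all 7 comparisons, where the calls among all genes amounted to 0.0336% in TH to YH, 0.00839% in TL to YL, 0.0504% in TH to TL, 0.0% in YH to YL, 0.0336% for the interaction of breed and altitude, 0.0504% for Tibetan to Yorkshire pigs over both altitudes and 0.0336% for highland to lowland over both breeds. Without adjustment, the limma p was under 0.05 for 3, 1, 0, 2, 2, 6 and 1 of the 41 genes in these comparisons, in the same order. The shares of all genes at this p were 16.2%, 8.94%, 11.3%, 5.97%, 10.9%, 13.5% and 7.22%. The share of the interferon-stimulated genes was below that of all genes in 6 comparisons and close to it, at 14.6%, between the breeds over both altitudes. This does not show that these genes differed less, since the fit takes the spread of a gene from all 4 groups, YL included. On the log2 scale, the standard deviation of the median level of the 41 genes was 1.15 in YL and at most 0.303 elsewhere. Without both YL libraries, the limma adjusted p in TH to YH was 0.049 for OAS2 and 0.13 for MX1, against 0.489 and 0.508. It fell in GBP1, GBP2 and ISG20 too, and still 0 of 41 were called. The genes with an unadjusted limma p under 0.05 were GBP1, GBP2 and IRF1 in TH to YH, TRIM26 in TL to YL, GBP1 and IRF1 in YH to YL and in the interaction, GBP1, GBP2, STAT2, TRIM21, TRIM26 and PARP9 over both altitudes, and MX1 over both breeds. In data simulated for TH to YH, changes were given to 200 genes drawn from all genes tested. On the log2 scale, the fit called 69.5% of those that changed by 3 and 19.5% of those that changed by 2. Changes of 2 or less were thus mostly not detectable in that comparison. The rates are not those of the interferon-stimulated genes, of which MX1 and MX2 had standard errors of 0.96 and 1.15 in TH to YH. In such genes a change of 3 may also have been missed. The other comparisons were not simulated.

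Between the breeds in the highland, nearly all of these genes were lower in TH than in YH. Of the 41, 39 had a lower fitted mean in TH, where 52.3% of all genes did. The median log2 fold change was -0.32 (quartiles -0.80 and -0.18), beside -0.03 over all genes. It was -0.28 without YH1 and -0.52 without YH2. The libraries of the groups did not overlap in 21 genes, all of them lower in TH, beside 27.3% of all genes that were lower and 25.2% that were higher without overlap. The 21 genes come from most of the roles, with ISG20, OAS2, IFIT3, IFIT5 and ADAR among the effectors, MX1, GBP1 and GBP2 among the GTPases, and STAT2, IRF1, IRF7 and IRF9 among the genes of the signal. The exceptions with a higher mean in TH were IFITM1 and OAS1.

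The largest of these differences was in GBP1, a GTPase that coats the membranes around intracellular pathogens. GBP1 had 3.04 and 4.86 FPKM (TH), 8.81 and 10.9 (TL), 37.9 and 18.3 (YH) and 15.5 and 4.53 (YL). Both YH libraries lay above all others, and both TH libraries lay below both TL libraries. The log2 fold change of GBP1 in TH relative to YH was -2.49 ± 0.56 (SE, limma adjusted p = 0.134). GBP2, its neighbour on chromosome 4, had 2.61 and 1.74 FPKM (TH), 3.42 and 4.30 (TL), 14.5 and 5.23 (YH) and 11.6 and 3.30 (YL). GBP2 differed by -1.64 ± 0.59 (SE, limma adjusted p = 0.257), but the YH libraries overlapped with YL1. ISG20 differed by -1.37 ± 0.89, MX1 by -1.37 ± 0.96 and OAS2 by -1.14 ± 0.77 (SE, limma adjusted p = 0.479, 0.508 and 0.489). None of these 5 differences passed the threshold. Without YH1, the difference was -0.99 in GBP2 and -0.75 in ISG20. With the scaled signal in place of FPKM it was -4.31 in ISG20 and -2.22 in MX1, and with a pseudocount of 0.1 it was -3.66 in ISG20. ISG20 had 1 and 0 reads in TH and 56 and 16 in YH, so the size of its difference depends on how such low values are handled.

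Between the altitudes in Tibetan pigs, 38 of the 41 genes had a lower fitted mean in TH than in TL. The median log2 fold change was -0.57 (quartiles -0.71 and -0.28), beside -0.02 over all genes. Its size depended on the pools, with -0.31 without TL2 and -0.77 without TL1. The libraries did not overlap in 24 genes, all lower in TH, beside 24.5% of all genes that were lower and 24.0% that were higher without overlap. These 24 included all 3 RNA sensors and 4 of the 5 members of the ISG15 system, ISG15 itself being the exception. MX1 had the largest difference at -1.75 ± 0.96, followed by RNF213 at -1.22 ± 0.57, GBP1 at -1.15 ± 0.56, OAS2 at -1.13 ± 0.77 and IFIT5 at -0.90 ± 0.51 (SE, limma adjusted p = 0.542, 0.476, 0.493, 0.627 and 0.552). The spread between pools was large beside these values. The difference in MX1 was -1.13 without TL2 and -2.7 with the scaled signal, and the difference in IFIT5 was -0.4 without TH1 and -1.41 without TH2.

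Markers of several cell types also differed between TH and the groups it was compared with, with 0 called. From TH to TL, all 8 T cell markers were lower in TH (7 without overlap), 7 of 8 cardiomyocyte markers were lower (5 without overlap) and all 4 red blood cell markers were higher (3 without overlap). The macrophage and myeloid markers summed to 43.8 and 66.1 FPKM in TH and 117 and 121 FPKM in TL, but the list was split, with 4 of the 8 tested rows lower in TH (4 without overlap) and 4 higher (3 without overlap). C1QA, a subunit of complement C1q, had 4.49 and 13.1 FPKM in TH and 44.1 and 45.5 FPKM in TL, whereas CD68, a lysosomal protein of macrophages, had 5.39 and 5.95 FPKM in TH and 2.89 and 2.60 FPKM in TL. The NK cell markers were lower in TH in 4 of 4 tested rows in both comparisons (1 without overlap against TL and 4 against YH), and the endothelial markers in 4 of 5 (1 and 3 without overlap). From TH to YH, 6 of the 8 macrophage and myeloid rows were lower in TH (4 without overlap), 5 of 8 cardiomyocyte markers were lower (3 without overlap) and all 4 red blood cell markers were higher without overlap. The part of these markers in the lower levels in TH was not tested.

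Both comparisons share the TH libraries, and so their values are not independent. TH1 was the lowest library in 20 of the 41 tested genes (48.8%, against 26.7% of all genes tested) and TH2 in 6 (14.6%, against 10.7%). Against YH, TH1 alone was below both libraries in 34 genes and TH2 alone in 24. Against TL, TH1 alone was below both libraries in 35 genes and TH2 alone in 28. Over all genes, TH1 was below both YH libraries in 45.1% and TH2 in 39.3%, and TH1 was below both TL libraries in 45.6% and TH2 in 40.5%. Both TH pools therefore stood low in these genes, TH1 more so. With each library scaled by its median ratio, the median over all genes moved to -0.13 in TH to YH and -0.10 in TH to TL, and the medians of the interferon-stimulated genes were then -0.42 and -0.61. The genes without overlap were 24 and 27 on that scale, where 32.1% and 28.9% of all genes were lower without overlap.

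**Figure D3:**
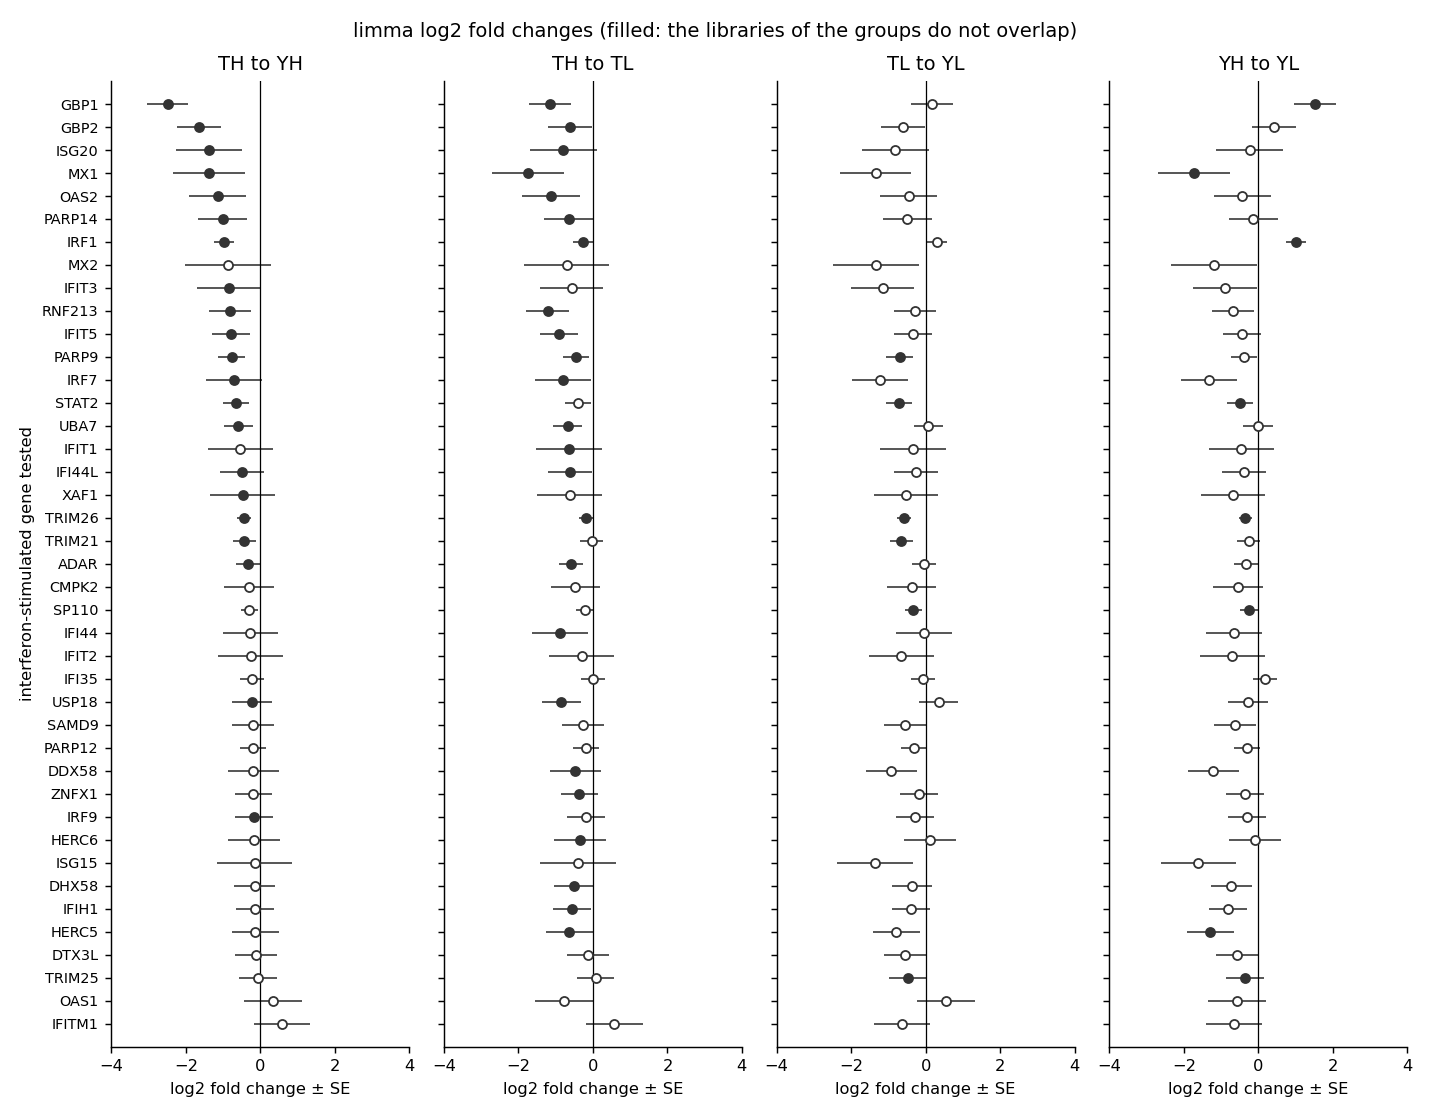
limma log2 fold changes with their standard errors for the 41 tested interferon-stimulated genes in 4 comparisons, with filled points where the libraries of the groups do not overlap. In TH to YH and TH to TL most points lie left of 0 (39 and 38 of 41), and in TL to YL and YH to YL most do so too (35 and 37 of 41), but with few filled points.

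The comparisons with YL depended on YL1. From TL to YL, 35 of 41 genes had a lower mean in TL, with a median log2 fold change of -0.45, but the median was 0.50 without YL1 and -1.25 without YL2. From YH to YL, 37 of 41 had a lower mean in YH, with a median of -0.45, which became 0.47 without YL1 and -1.51 without YL2. The direction of these medians was thus set by the pool that was kept, and no difference of YL from the other groups can be read from them. The medians over both altitudes (-0.44) and over both breeds (-0.50) became 0.03 and -0.02 without YL1, and -0.84 and -1.0 without YL2. The median of the interaction was 0.03, and it became -1.01 without YL1 and 0.90 without YL2.

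In a few genes both YL pools lay on the same side of the other group, although none passed the test. From TL to YL, the libraries did not overlap in 6 genes, all lower in TL (14.6% of 41), beside 17.8% of all genes that were lower and 23.8% that were higher without overlap. They were STAT2, PARP9, TRIM21, TRIM25, TRIM26 and SP110. STAT2 differed by -0.72 ± 0.35, PARP9 by -0.70 ± 0.35, TRIM21 by -0.65 ± 0.31, TRIM26 by -0.59 ± 0.19 and TRIM25 by -0.48 ± 0.51 (SE, limma adjusted p = 0.626, 0.632, 0.619, 0.408 and 0.819). Much of this came from YL1 in 3 of these genes, since without it the difference was -0.15 in PARP9, -0.2 in TRIM21 and -0.29 in TRIM25, and without YL2 it was -1.25 in PARP9 and -1.1 in TRIM21. A share of 14.6% is close to that of all genes and is not a result about the interferon-stimulated genes.

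From YH to YL, 6 genes were lower in YH and 2 were higher without overlap, beside 14.4% and 21.9% of all genes. The 6 genes are 14.6% of the 41, close to the share of all genes, and the 2 are 4.88%. The lower genes were HERC5 (-1.29 ± 0.63), MX1 (-1.72 ± 0.96), STAT2 (-0.48 ± 0.35), SP110, TRIM25 and TRIM26, and the limma adjusted p of HERC5, MX1 and STAT2 was 0.784, 0.784 and 0.787. The higher genes were GBP1 (1.52 ± 0.56, SE, limma adjusted p = 0.784) and IRF1 (1.01 ± 0.28, SE, limma adjusted p = 0.688). IRF1, the regulator that relays interferon gamma, had 5.67 and 6.96 FPKM (TH), 7.55 and 7.89 (TL), 15.7 and 11.2 (YH) and 7.67 and 4.77 (YL). Both YH libraries of IRF1 lay above the other 6. Without YL1, the difference from YH to YL was -0.09 in MX1 and -0.22 in HERC5, against -3.35 and -2.37 without YL2, so YL1 made nearly all of these differences, and in HERC5 it was -2.18 with the scaled signal. In GBP1 it was 2.31 without YL1, 0.73 without YL2 and 1.01 without YH1.

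Over both altitudes, the libraries of Tibetan and Yorkshire pigs did not overlap in 4 of the 41 genes, all lower in Tibetan pigs (9.76%), beside 3.47% of all genes that were lower and 4.57% that were higher without overlap. They were PARP9 (-0.74 ± 0.25), STAT2 (-0.69 ± 0.25), TRIM21 (-0.54 ± 0.22) and TRIM26 (-0.51 ± 0.13), with limma adjusted p of 0.285, 0.300, 0.354 and 0.170. TRIM26, a ligase of the interferon response, had 2.55 to 3.41 FPKM in the 4 Tibetan libraries and 4.03 to 5.48 FPKM in the 4 Yorkshire libraries. PARP9 had 1.27 to 2.30 FPKM in Tibetan and 2.59 to 6.71 FPKM in Yorkshire libraries. Over both breeds, HERC5 alone was lower in all highland libraries (-0.97 ± 0.45, SE, limma adjusted p = 0.730), beside 1.06% of all genes that were lower and 1.63% that were higher without overlap. Without YL1, the differences were -0.43 in HERC5, -0.46 in PARP9 and -0.32 in TRIM21, and without TH1 that in STAT2 was -0.43. In HERC5 it was -1.5 without YL2, -1.55 with a pseudocount of 0.1 and -1.72 with the scaled signal.

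**Figure D4:**
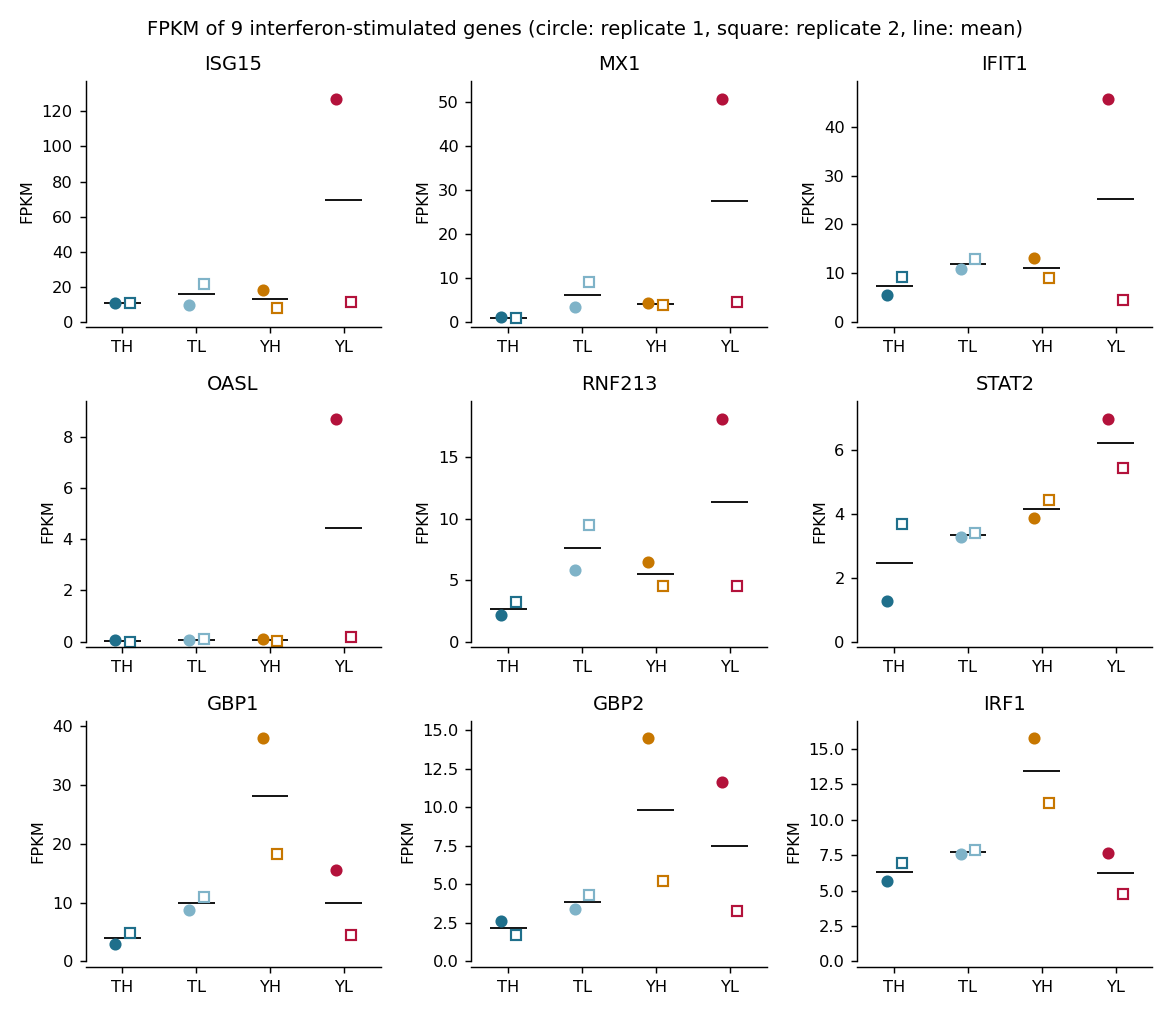
FPKM of 9 interferon-stimulated genes by group, with circles for replicate 1, squares for replicate 2 and a line at the mean of the 2. ISG15, MX1, IFIT1, OASL and RNF213 are highest in YL1, STAT2 is high in both YL libraries, and GBP1, GBP2 and IRF1 are highest in YH1.

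The genes that were highest in YH1 were GBP1, GBP2, IRF1, GBP5 and IDO1. GBP5, which takes part in inflammasome assembly, had 0.643 and 0.472 FPKM (TH), 0.754 and 0.977 (TL), 1.53 and 0.769 (YH) and 0.827 and 0.142 (YL). IDO1, which breaks down tryptophan, had 0.034 and 0.039 FPKM (TH), 0.032 and 0.513 (TL), 0.592 and 0.494 (YH) and 0.083 and 0.188 (YL). IDO1 rests on 63 reads in all libraries together. Neither gene was tested, since both lay below the filter.

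The summed markers of T cells and NK cells were also highest in YH, while those of B cells were not. The 8 T cell markers summed to 25.3 and 29.0 FPKM in YH, 4.87 and 4.64 in TH, 8.12 and 11.2 in TL, and 8.13 and 11.6 in YL. All 8 were highest in a YH library, all 8 were lower in TH than in YH without overlap, and none was at 0 in any library. The NK cell markers summed to 23.8 and 26.0 FPKM in YH, 6.69 and 8.19 in TH, 10.03 and 12.3 in TL, and 18.9 and 12.2 in YL, and 5 of the 8 NK cell rows were highest in a YH library. KLRB1 was the exception among the 4 tested NK cell rows, with 6.88 FPKM in YL1 and 3.88 and 5.86 in YH. Of the 2 rows each of GZMA and KLRB1, 7 values were at 0, of which 3 were in TH1, 2 in TH2, 1 in TL2 and 1 in YH1. The 4 B cell markers summed to 0.909 and 1.49 FPKM in YH, 1.61 and 0.996 in TH, 1.47 and 2.41 in TL, and 1.05 and 1.11 in YL. None of the 8 T cell, 4 NK cell or 1 B cell rows tested was called in any comparison, and their part in the levels of GBP1, GBP2 and IRF1 was not tested. The T cell sum of YL1 was within the range of the TL and YL2 libraries, the NK cell sum of YL1 (18.9 FPKM) was above those of TH, TL and YL2, and the macrophage and myeloid sum of YL1 was 107.7 FPKM, within the 43.8 to 128 FPKM of the other libraries.

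**Figure D5:**
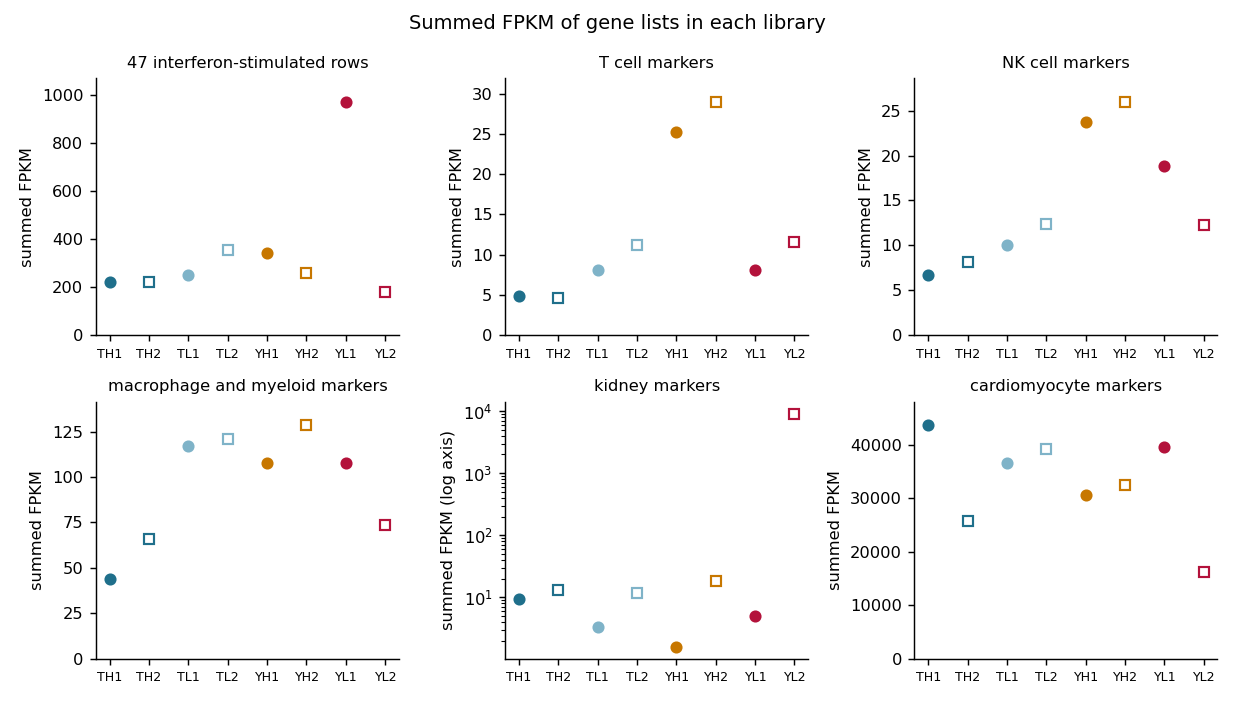
Summed FPKM in each library of the 47 interferon-stimulated rows and of marker lists for T cells, NK cells, macrophages and myeloid cells, kidney (log axis) and cardiomyocytes. The interferon-stimulated sum is highest in YL1 (972), the T cell sum in YH1 and YH2 (25.3 and 29.0) and the kidney sum in YL2 (9033).

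The other genes of the pathway did not show the YL1 pattern as a whole. Of the interferons themselves, 5 of 8 listed genes had a row, IFNA1, IFNB1, IFNE, IFNG and IFNK, and none reached the filter. Their highest level in any library was 0.614 FPKM, for IFNG in YH2, and IFNB1 was listed at 0 in 7 libraries, YL1 included. IFNG had 0.254 and 0.614 FPKM in YH and at most 0.108 FPKM elsewhere. In YL1 the summed ligands stood at 0.181 FPKM, within the range of the other libraries. The receptor chains IFNAR2 and IFNGR1 were found, and both were lowest in YL2, at 1.97 and 8.02 FPKM.

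The kinases JAK1, JAK2 and TYK2 were tested, and 0 of them were called in any comparison. Of the sensors, adaptors and kinases that induce interferon, such as TLR3, MAVS and TBK1, 0 of 10 tested rows were called, and MAVS had 104 FPKM in YL1 against 50.8 to 101 FPKM elsewhere. Of the 6 inhibitors, such as SOCS1 and PTPN2, 0 were called, and SOCS1 was highest in TL1 at 10.5 FPKM.

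Further targets of interferon, listed apart from the 51, gave 12 tested rows, and 0 were called. Of these rows, 2 were highest in YL1, 7 in a YH library and 3 in another library, so most did not have their highest level in YL1. CXCL10, a chemokine induced by both kinds of interferon, had 8.01 and 3.17 FPKM (TH), 9.19 and 16.3 (TL), 138 and 21.5 (YH) and 366 and 8.42 (YL). NMI, a protein induced by interferon, had 15.1 FPKM in YL1 and 2.64 to 5.19 FPKM elsewhere. CXCL9, a chemokine induced mainly by interferon gamma, had 3.39 and 1.28 FPKM (TH), 3.96 and 6.51 (TL), 16.6 and 9.92 (YH) and 2.38 and 1.03 (YL). CXCL9 was thus high in both YH libraries and not in YL1.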

How the data were processed

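Heart RNA of 8 libraries (4 groups of 2) was analysed. The authors aligned reads to Sscrofa10.2 (Bowtie 0.12.5 and TopHat2 2.0.9 in the submitters' processing notes, with DESeq 1.10.1 for their own tests) and deposited, per gene and library, FPKM and a read signal scaled by a factor per library. Dividing the signal by its smallest step gave whole numbers for at least 99.77% of low values (tolerance 0.1), which served only for read numbers. Another 8 columns, group means and ratios, were not used. The descriptions of YL1 and YL2 name the TL file, and both were taken as YL by title.

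limma 3.58.1 in R 4.3.3 was fitted to log2(FPKM + 1) with a trend and 1 coefficient per group, over the 11913 genes that reached 1 FPKM in 2 libraries or more. The pseudocount makes the fold changes of low genes too small. Benjamini-Hochberg adjustment ran over the whole set of tested genes, and the fit was tested on simulated data. Any member may be named with its FPKM, and fold changes are given for called members and for at most 5 per comparison with the largest change among those whose libraries do not overlap. A listed pathway gene is not reported here. The members and lists were chosen with earlier results of these data known. The alternatives were a pseudocount of 0.1, no filter, a mean of at least 5 FPKM, median-ratio scaling, no trend, a replicate block, only the libraries compared, looser thresholds and each library left out. The authors' scaled signal and both YL libraries left out were added after seeing the data. Tables were made with Python 3.11.15 and pandas 2.3.3.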

Additional observations from a re-analysis of the deposited data

Results flagged for a closer look

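GBP1 and IRF1 had altitude differences of opposite direction in the breeds, in every library. GBP1 was lower in the highland than in the lowland in Tibetan pigs and higher in the highland in Yorkshire pigs, and the difference between these differences was -2.67 ± 0.79 on the log2 scale (SE, limma adjusted p = 0.357). IRF1 showed the same with -1.27 ± 0.39 (SE, limma adjusted p = 0.360). Neither passed the threshold, so a difference between the breeds was not shown. Opposite directions without overlap were found in 2 of the 41 tested genes, beside 11.3% of all genes tested.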

How the results depend on the processing

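No interferon-stimulated gene was called at the main threshold under any alternative fit run, and no named fold change changed its direction. The adjusted p of the named members nevertheless differed widely between the fits, so it depends on the processing. By the unadjusted p (under 0.01, fold change limit kept), 1 of 41 (2.44%) was called in TH to YH (GBP1, beside 4.06% of all genes) and 1 in YH to YL (IRF1, beside 0.839%). With 1 library left out at a time, the median log2 fold change ranged from -1.25 to 0.50 in TL to YL, from -1.51 to 0.47 in YH to YL and from -1.01 to 0.90 for the interaction, with both ends set by YL1 or YL2. In TH to YH it ranged from -0.52 (without YH2) to -0.28 (without YH1) and in TH to TL from -0.77 (without TL1) to -0.31 (without TL2). A group left with 1 library was assumed to vary like the others. The replicate numbers did not pair the libraries (correlations of -0.08 to 0.12), and with a replicate block 0 of 41 were called in every comparison. A planned count test on reads recovered from the scaled signal was not run, because a small part of its low values is no whole multiple of a read. The number of pools, 2 per group, limits what could be called.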
